A study of Mus musculus with 34 samples.

Results

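The BCL2 family decides whether a cell keeps its mitochondria intact, and 10 of its genes were followed here in dendritic cells (DCs), the antigen-presenting cells that activate T cells. The genes were Bcl2l11 (which encodes Bim), Bcl2, Bcl2l1, Mcl1, Bax, Bak1, Bid, Bad, Bbc3 and Pmaip1. Each was represented by the array probe set annotated to that symbol alone, and of several such probe sets for a gene, that of highest average signal across the 34 arrays was taken. That gave 9 of the 10 members, among 22180 genes represented in the same way. Bax had no probe set of a single symbol in the annotation used and is not analysed here.

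DCs had been sorted from the spleens of C57BL/6 mice and profiled on 34 arrays in 11 groups. The sorted subsets were Mst1/2-KO CD8+, WT CD8+, Mst1/2-KO CD8- and WT CD8- DCs with 4 arrays each, and total DCs were profiled on 3 Mst1/2-KO and 4 WT arrays. Mst1 and Mst2 are the Hippo pathway kinases, and the labels give the genotype as Mst1/2-/- with no Cre or promoter named. Experiment 1 held 3 arrays of DCs labelled Rag1-/-/p38-/- and 4 of Rag1-/- DCs, all stimulated with anti-CD40, an antibody that triggers CD40 on DCs. Experiment 2 consisted of 2 anti-CD40 Rag1-/- arrays, 1 anti-CD40 WT array and 1 non-stimulated Rag1-/- array. Rag1-/- mice lack mature T and B cells, a deletion that both groups of experiment 1 carry. Neither the ages nor the number of animals behind a group is given, so the p-values cover the spread among arrays and may miss the spread among animals. Because the samples were bulk, fewer cells of a type and less RNA per cell cannot be told apart.

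In healthy cells the pro-survival proteins BCL2, BCL-XL and MCL1 hold the effectors BAX and BAK in check at the mitochondrial outer membrane. Stress and the loss of survival signals raise the BH3-only proteins, among them BIM, BID, BAD, PUMA and NOXA, which bind the pro-survival proteins or activate the effectors directly, and the effectors then release cytochrome c. In DCs this balance is known to set lifespan, BIM being a main driver of their turnover.

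Promoters are shown for Bcl2l11, the member called between the genotypes in CD8+ DCs, and for Bcl2, the member with the widest called difference between them in CD8- DCs by the probe sets used. They come from RefSeq (build GRCm38.p6) and run from 250 bases before to 50 bases after an annotated transcription start, written 5′ to 3′ on the strand of the gene. Capitals mark GC boxes (GGGCGG, or CCGCCC for the other strand) and the forkhead motif of FOXO factors (GTAAACA, or TGTTTAC for the other strand). Overlapping matches between these motifs were not present in the stretches shown. Bcl2l11 has 2 annotated starts in the table, and Bcl2 has 1.

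Bcl2l11, first start, chr2:128125788-128126087, + strand: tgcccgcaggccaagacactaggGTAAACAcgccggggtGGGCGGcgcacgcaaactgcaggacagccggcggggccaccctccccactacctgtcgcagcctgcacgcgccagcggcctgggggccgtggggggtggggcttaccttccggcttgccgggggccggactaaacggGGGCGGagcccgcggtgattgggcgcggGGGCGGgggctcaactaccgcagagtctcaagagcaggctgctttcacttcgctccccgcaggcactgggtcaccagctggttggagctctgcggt

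Bcl2l11, other start, chr2:128127325-128127624, + strand: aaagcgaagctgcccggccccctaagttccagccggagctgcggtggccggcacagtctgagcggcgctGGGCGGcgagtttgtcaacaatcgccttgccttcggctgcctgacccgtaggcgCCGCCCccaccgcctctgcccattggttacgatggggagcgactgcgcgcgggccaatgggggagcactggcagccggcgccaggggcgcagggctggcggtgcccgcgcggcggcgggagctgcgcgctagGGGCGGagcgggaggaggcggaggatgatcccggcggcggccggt

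Bcl2, chr1:106714241-106714540, - strand: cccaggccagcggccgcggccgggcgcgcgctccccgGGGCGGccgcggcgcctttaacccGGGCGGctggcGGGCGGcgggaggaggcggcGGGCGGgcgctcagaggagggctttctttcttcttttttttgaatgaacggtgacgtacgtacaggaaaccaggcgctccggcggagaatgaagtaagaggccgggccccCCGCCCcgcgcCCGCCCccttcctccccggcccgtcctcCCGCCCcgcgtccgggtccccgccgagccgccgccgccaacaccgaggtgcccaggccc

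The first Bcl2l11 promoter was 71.0% G and C and held 3 GC boxes and 1 forkhead motif, whereas the other Bcl2l11 promoter was 74.0% G and C and held 3 GC boxes and 0 forkhead motifs. The Bcl2 promoter was 76.0% G and C and held 7 GC boxes and 0 forkhead motifs. Over the 32851 promoters of the same length, 35.7% held a GC box, 3.65% held the forkhead motif, and the median G and C content was 52.7%. Promoters of Pmaip1 were left out of the motif search for the members. Among the other members searched, a forkhead motif lay in 1 of the 3 Bbc3 promoters. The TEAD motif GGAATG, found in 14.7% of all promoters, lay in 1 Bcl2l1 promoter and in the Mcl1 promoter, and the NF-kB motif, found in 8.46%, in 1 Bcl2l1 and 1 Bbc3 promoter. These are matches of letters only and not measured binding.

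The signals are log2 values normalised by the authors, and a level may be compared only for 1 probe set and within 1 experiment label. Array medians lay between 4.11 and 4.20, and arrays have no read depth, so their number limits the precision. The labelled subsets matched their markers, with 7 of 7 measured CD8+ DC markers higher and 6 of 6 CD8- DC markers lower in WT CD8+ than in WT CD8- DCs. Stk4, which encodes Mst1, was lower in Mst1/2-KO than in WT CD8+ DCs (7.47 ± 0.21 against 8.33 ± 0.09, n = 4 and 4), in CD8- DCs (7.55 ± 0.13 against 8.32 ± 0.13, n = 4 and 4) and in total DCs (7.41 ± 0.09 against 8.51 ± 0.06, n = 3 and 4), each a call. Mapk14, the gene of p38-alpha, read 8.47 ± 0.08 in the arrays labelled Rag1-/-/p38-/- and 8.24 ± 0.26 in Rag1-/- arrays (n = 3 and 4), a difference of 0.23 ± 0.14 with an adjusted p of 0.657. Stk3, which encodes Mst2, and Rag1 had no probe set of a single symbol and were not measured. Where the Stk4 and Mapk14 probes lie relative to the deletions is not known. The labels do not say which p38 gene was deleted, so the arrays are named by their label.

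In CD8+ DCs, the loss of Mst1/2 went with a 2.26-fold lower signal of Bcl2l11, whose product Bim is a BH3-only protein that binds all the pro-survival members. Bcl2l11 read 6.95, 6.85, 6.65 and 6.89 in Mst1/2-KO CD8+ arrays, against 7.76, 8.12, 8.08 and 8.07 in WT CD8+ arrays. Every Mst1/2-KO array lay below every WT array. The change was -1.17 ± 0.10 (log2, SE) with an adjusted p of 5.64e-06, from a limma model of the 16 sorted arrays with Benjamini-Hochberg adjustment over all 22180 genes. By absolute change it stood at rank 37 of those genes. A gene is said to be called, or to rise or fall, when this adjusted p is under 0.05.

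Bcl2l11 was the 1 member of the 9 called in CD8+ DCs, where 0.888% of all genes were called in either direction and 0.654% as lower. Among the pro-survival genes, Bcl2 read 6.77, 6.62, 6.67 and 6.67 in Mst1/2-KO CD8+ arrays and 6.44, 6.73, 6.53 and 6.58 in WT CD8+ arrays, and the groups overlapped (0.11 ± 0.10, adjusted p = 0.771). Bcl2l1, the gene of BCL-XL, read 5.05, 5.07, 5.22 and 4.84 in Mst1/2-KO CD8+ arrays and 5.22, 5.63, 5.30 and 5.56 in WT CD8+ arrays. Its difference of -0.38 ± 0.13 missed the threshold (adjusted p = 0.223). Mcl1, the gene of a short-lived guardian protein that DCs and many blood cells need to live, differed by -0.05 ± 0.08. The effector gene Bak1 read 9.93 to 10.04 in Mst1/2-KO CD8+ arrays and 9.72 to 9.90 in WT CD8+ arrays, without overlap, yet its difference of 0.18 ± 0.07 was not called (adjusted p = 0.324). With Bad (6.87 to 6.98 in Mst1/2-KO and 6.71 to 6.87 in WT CD8+ arrays, apart in the digits not shown), 3 of the 9 members had groups without overlap, as did 6.33% of all genes. The remaining BH3-only genes differed by -0.23 to 0.12, with adjusted p from 0.725 to 0.989. The median change of the 9 members was -0.01, against 0.00 over all genes.

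**Figure D1:**
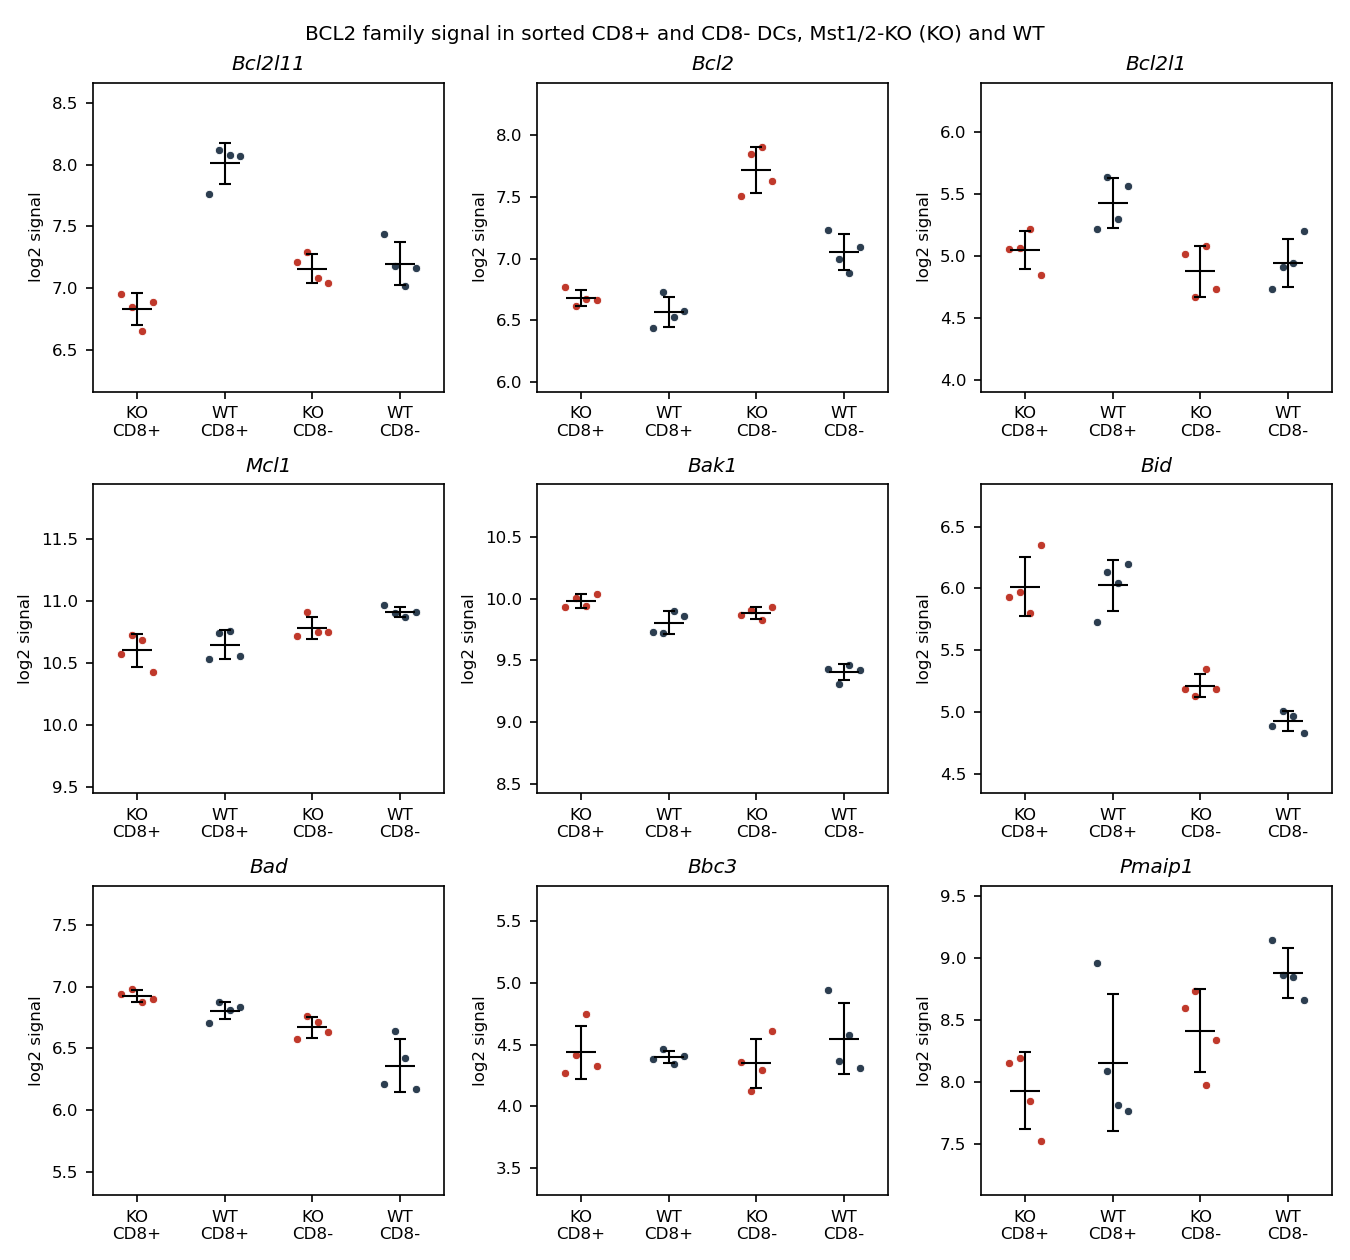
Log2 signal (vertical axis) of the 9 measured members in each of the 16 arrays of sorted DCs, 1 panel per gene, with points for arrays and a bar for the group mean. Bcl2l11 in Mst1/2-KO CD8+ arrays lies at 6.65 to 6.95, below the 7.76 to 8.12 of WT CD8+ arrays, and Bcl2 is highest in Mst1/2-KO CD8- arrays, at 7.51 to 7.90.

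In CD8- DCs, the loss of Mst1/2 went with higher signals of Bcl2 and Bak1, a survival gene and a death effector, while Bcl2l11 did not pass the test. Bcl2 read 7.51, 7.85, 7.90 and 7.62 in Mst1/2-KO CD8- arrays, against 7.23, 7.0, 6.88 and 7.09 in WT CD8- arrays. Every Mst1/2-KO array lay above every WT array, and Bcl2 rose by 0.67 ± 0.10, or 1.59-fold (adjusted p = 0.000462). Bak1 read 9.87, 9.91, 9.83 and 9.93 in Mst1/2-KO CD8- arrays, against 9.43, 9.31, 9.46 and 9.42 in WT CD8- arrays. These groups too were separate, and Bak1 rose by 0.48 ± 0.07, or 1.39-fold (adjusted p = 0.00031). Bcl2l11 read 7.21, 7.30, 7.09 and 7.04 in Mst1/2-KO CD8- arrays and 7.44, 7.18, 7.02 and 7.16 in WT CD8- arrays. The groups overlapped, and the difference was -0.04 with a 95% interval of -0.26 to 0.18.

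Bad, a BH3-only gene whose protein is switched off by growth-factor kinases, was the third member called higher in CD8- DCs, close to the threshold. It read 6.58, 6.77, 6.71 and 6.63 in Mst1/2-KO CD8- arrays and 6.21, 6.64, 6.42 and 6.17 in WT CD8- arrays, with 1 WT array inside the Mst1/2-KO range. The rise was 0.31 ± 0.09 (adjusted p = 0.0496). The call was lost in 4 of 7 other settings and without any one of 7 of the 8 arrays (adjusted p up to 0.159), and it was kept without WT CD8- replicate 2 (0.40, adjusted p = 0.00832). The 3 called members of 9 compare with 6.68% of all genes called in CD8- DCs, and with 3.90% of all genes called higher. Bid, whose protein links death receptors to mitochondria once caspase-8 has cut it, read 5.13 to 5.35 in Mst1/2-KO CD8- arrays and 4.83 to 5.01 in WT CD8- arrays, without overlap, but was not called (0.29 ± 0.11, adjusted p = 0.175). Across all genes 12.0% had groups without overlap in CD8- DCs. Pmaip1, the gene of NOXA, which pairs mainly with MCL1, averaged 8.41 ± 0.34 in Mst1/2-KO and 8.88 ± 0.20 in WT CD8- arrays (SD, n = 4 each), a difference of -0.47 ± 0.23 (adjusted p = 0.298). Bbc3, the gene of the p53 target PUMA, differed by -0.20 ± 0.13, Mcl1 by -0.13 ± 0.08 and Bcl2l1 by -0.07 ± 0.13. The median change of the 9 members was -0.04 in CD8- DCs, against 0.00 over all genes.

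A further Bcl2 probe set, of low signal, did not show the same size of change. It averaged 4.30 ± 0.14 in Mst1/2-KO and 4.13 ± 0.18 in WT CD8- arrays (SD, n = 4 each), a difference of 0.17 ± 0.12 (adjusted p = 0.518). In CD8+ DCs the same probe set differed by 0.28 ± 0.12 (adjusted p = 0.393). Its WT CD8+ mean of 3.82 lay under every array median, and whether it stood above background was not tested. The size of its differences, and of those from the mean of both probe sets, is therefore uncertain. With the mean of both probe sets the Bcl2 change in CD8- DCs was 0.42 and remained a call. The other Mcl1 probe set differed by -0.16 ± 0.08 in CD8+ and by -0.13 ± 0.08 in CD8- DCs, and neither was called. A Bad probe set shared with Gpr137 differed by -0.19 ± 0.12 in CD8- DCs, opposite in sign to the Bad probe set used.

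Whether the genotype effect differed between the subsets was tested directly as the effect in CD8+ minus the effect in CD8- DCs. Bcl2l11 was called, with a difference of effects of -1.13 ± 0.15 (adjusted p = 0.0011), and it was the 1 member of the 9, against 0.559% of all genes. Bcl2 had a difference of effects of -0.56 ± 0.14, which missed the threshold (adjusted p = 0.0835). With the mean of both Bcl2 probe sets it was -0.22 (adjusted p = 0.698), the other, low-signal probe set alone giving 0.11 ± 0.17 (adjusted p = 0.908). Leaving out WT CD8- replicate 1 gave -0.62 with an adjusted p of 0.0373, and the threshold was missed without any one of the other 15 arrays. Bak1, called in CD8- DCs alone, had a difference of effects of -0.30 ± 0.09 with an adjusted p of 0.204, so its effects were not shown to differ between the subsets. Bad had one of -0.19 ± 0.13 (adjusted p = 0.731). Effects of the other 5 members differed by -0.31 to 0.24, none of them called.

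Other transcripts moved in the same arrays, and their part in the member results was not tested. The 5 DC maturation genes (Ccr7, Fscn1, Cd40, Ccl22 and Relb) had a mean signal of 7.07 (6.72 to 7.24) in Mst1/2-KO and 8.60 (8.41 to 8.74) in WT CD8+ arrays, and 5 of 5 were called lower. In CD8- DCs the list averaged 7.69 (7.40 to 7.81) in Mst1/2-KO and 8.54 (8.39 to 8.65) in WT arrays, with 4 of 5 called lower. The 5 proliferation genes averaged 8.24 in Mst1/2-KO and 7.67 in WT CD8+ arrays (3 of 5 called higher), and 8.42 in Mst1/2-KO and 7.82 in WT CD8- arrays (5 of 5 called higher). In CD8- DCs the 7 plasmacytoid DC markers averaged 8.52 (8.28 to 8.69) in Mst1/2-KO and 7.56 (7.29 to 7.80) in WT arrays, with 4 of 7 called higher. There the 7 CD8+ DC markers averaged 8.02 (7.69 to 8.16) in Mst1/2-KO and 7.46 (7.19 to 7.83) in WT arrays, with 4 of 7 called higher. The 6 CD8- DC markers averaged 8.83 (8.63 to 9.0) in Mst1/2-KO and 9.55 (9.47 to 9.64) in WT CD8- arrays (3 called lower, 1 higher), and the 7 B cell markers 5.51 (5.40 to 5.63) in Mst1/2-KO and 6.17 (6.05 to 6.32) in WT arrays (4 called lower). In CD8+ DCs the plasmacytoid markers averaged 7.31 in Mst1/2-KO and 7.28 in WT arrays, and the CD8+ DC markers 10.94 in Mst1/2-KO and 10.90 in WT arrays, with 0 of 7 called in either list. At an unadjusted p under 0.05 there, 1 plasmacytoid and 0 CD8+ DC markers passed. The CD8- DC markers averaged 5.59 (5.49 to 5.66) in Mst1/2-KO and 5.82 (5.64 to 6.07) in WT CD8+ arrays, with a median difference of -0.39, 1 of 6 called higher and 4 of 6 at an unadjusted p under 0.05.

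Between the WT subsets the family differed broadly, 8 of the 9 members being called (5 higher and 3 lower in CD8+), where 21.0% of all genes were. In 7 of the 9 the groups did not overlap, as in 22.4% of all genes. Among the BH3-only genes, Bid had the widest gap, at 5.73, 6.13, 6.04 and 6.20 in WT CD8+ arrays, against 4.89, 5.01, 4.97 and 4.83 in WT CD8- arrays. The difference was 1.10 ± 0.11, or 2.14-fold (adjusted p = 9.87e-07). Bcl2l11 was 0.81 ± 0.10 higher in WT CD8+ than in WT CD8- DCs (8.01 ± 0.17 against 7.20 ± 0.18, SD, n = 4 each, adjusted p = 1.19e-05). Bad was higher by 0.45 ± 0.09 (adjusted p = 0.00136), and the effector Bak1 by 0.40 ± 0.07 (adjusted p = 0.000207). The pro-survival genes divided, since Bcl2l1 was higher in WT CD8+ DCs by 0.48 ± 0.13 (adjusted p = 0.00898) and Bcl2 lower, at -0.48 ± 0.10 (adjusted p = 0.0013).

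Both remaining calls between the WT subsets, of Mcl1 and Pmaip1, depended on single arrays. Mcl1 averaged 10.65 ± 0.12 in WT CD8+ and 10.91 ± 0.04 in WT CD8- arrays (SD, n = 4 each), a difference of -0.26 ± 0.08 (adjusted p = 0.0249). The Mcl1 call was lost without WT CD8+ replicate 1 (adjusted p = 0.0762) or 4 (0.0774), without WT CD8- replicate 1 (0.0642) or 4 (0.0525), after quantile normalisation (0.151) and with the mean of both probe sets (0.0736). Pmaip1 read 8.96, 8.09, 7.81 and 7.77 in WT CD8+ arrays and 9.15, 8.87, 8.85 and 8.66 in WT CD8- arrays, where WT CD8+ replicate 1 alone reached into the CD8- range. Its difference was -0.73 ± 0.23 (adjusted p = 0.0313), and without that array it was -0.99 (adjusted p = 0.000672). The Pmaip1 call was lost without any one of 6 other arrays (adjusted p up to 0.108), was kept without WT CD8- replicate 4 (0.0345), and was lost with trend and robust moderation (0.0533) or with the 8 WT arrays alone (0.0564). Bbc3 was not called (-0.15 ± 0.13, adjusted p = 0.538). The 9 members had a median difference of 0.40 between the WT subsets, against 0.02 over all genes. Markers of other cell types were lower in the CD8+ sort, and their part in these results was not tested. T cell markers averaged 4.55 (4.46 to 4.65) in WT CD8+ and 5.73 (5.35 to 6.16) in WT CD8- arrays (5 of 5 called lower), and B cell markers 4.97 (4.90 to 5.03) in WT CD8+ and 6.17 (6.05 to 6.32) in WT CD8- arrays (4 of 7 called lower, 1 higher). Macrophage and monocyte markers averaged 7.03 (6.85 to 7.16) in WT CD8+ and 8.49 (8.21 to 8.68) in WT CD8- arrays (4 of 6 called lower), and NK cell markers 4.42 (4.39 to 4.47) in WT CD8+ and 5.20 (4.84 to 5.99) in WT CD8- arrays (4 of 5 called lower).

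Between the Mst1/2-KO subsets 3 of the 9 members were called (1 higher and 2 lower in CD8+), where 19.2% of all genes were (9.93% higher and 9.30% lower). Bcl2 was 2.05-fold lower in Mst1/2-KO CD8+ than in Mst1/2-KO CD8- DCs (6.68 ± 0.06 against 7.72 ± 0.19, SD, n = 4 each; -1.04 ± 0.10, adjusted p = 2.85e-07). With the mean of both Bcl2 probe sets that difference was -0.62 and still called (adjusted p = 0.000138). Bid was 0.80 ± 0.11 higher (6.01 ± 0.24 against 5.21 ± 0.09, adjusted p = 4.42e-05). Bcl2l11 was lower in the CD8+ DCs of this genotype, with 6.83 ± 0.13 in Mst1/2-KO CD8+ and 7.16 ± 0.12 in Mst1/2-KO CD8- arrays and no overlap, as for 21.9% of all genes. In WT the CD8+ DCs had the higher signal. That Bcl2l11 difference of -0.33 ± 0.10 (adjusted p = 0.0347) kept its sign in every setting run. It was no longer called after quantile normalisation (0.0612), with the replicate number as a block (0.0659), or without any one of 5 arrays, which were Mst1/2-KO CD8+ replicates 2 (0.0642), 3 (0.118) and 4 (0.0509) and Mst1/2-KO CD8- replicates 1 (0.085) and 2 (0.107). Bcl2l1, Mcl1, Bak1, Bad, Bbc3 and Pmaip1 differed by -0.48 to 0.25 and were not called, with adjusted p from 0.0629 to 0.74. Besides Bcl2l11, the groups of Bcl2, Bid, Bak1 and Bad did not overlap between the Mst1/2-KO subsets. Over the 4 sorted groups, then, the Bcl2l11 means ran in the order WT CD8+ at 8.01, WT CD8- at 7.20, Mst1/2-KO CD8- at 7.16 and Mst1/2-KO CD8+ at 6.83, where the middle pair did not differ beyond its spread. The Bcl2 means ran from Mst1/2-KO CD8- at 7.72 over WT CD8- at 7.05 and Mst1/2-KO CD8+ at 6.68 to WT CD8+ at 6.57, where the last pair did not differ beyond its spread. Other markers were lower in the CD8+ sort of this genotype too, and their part was not tested. T cell markers averaged 4.36 in Mst1/2-KO CD8+ and 5.37 in Mst1/2-KO CD8- arrays (5 of 5 called lower), plasmacytoid DC markers 7.31 in Mst1/2-KO CD8+ and 8.52 in Mst1/2-KO CD8- arrays (4 of 7), macrophage and monocyte markers 6.96 in Mst1/2-KO CD8+ and 8.51 in Mst1/2-KO CD8- arrays (4 of 6) and DC maturation genes 7.07 in Mst1/2-KO CD8+ and 7.69 in Mst1/2-KO CD8- arrays (4 of 5).

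**Figure D2:**
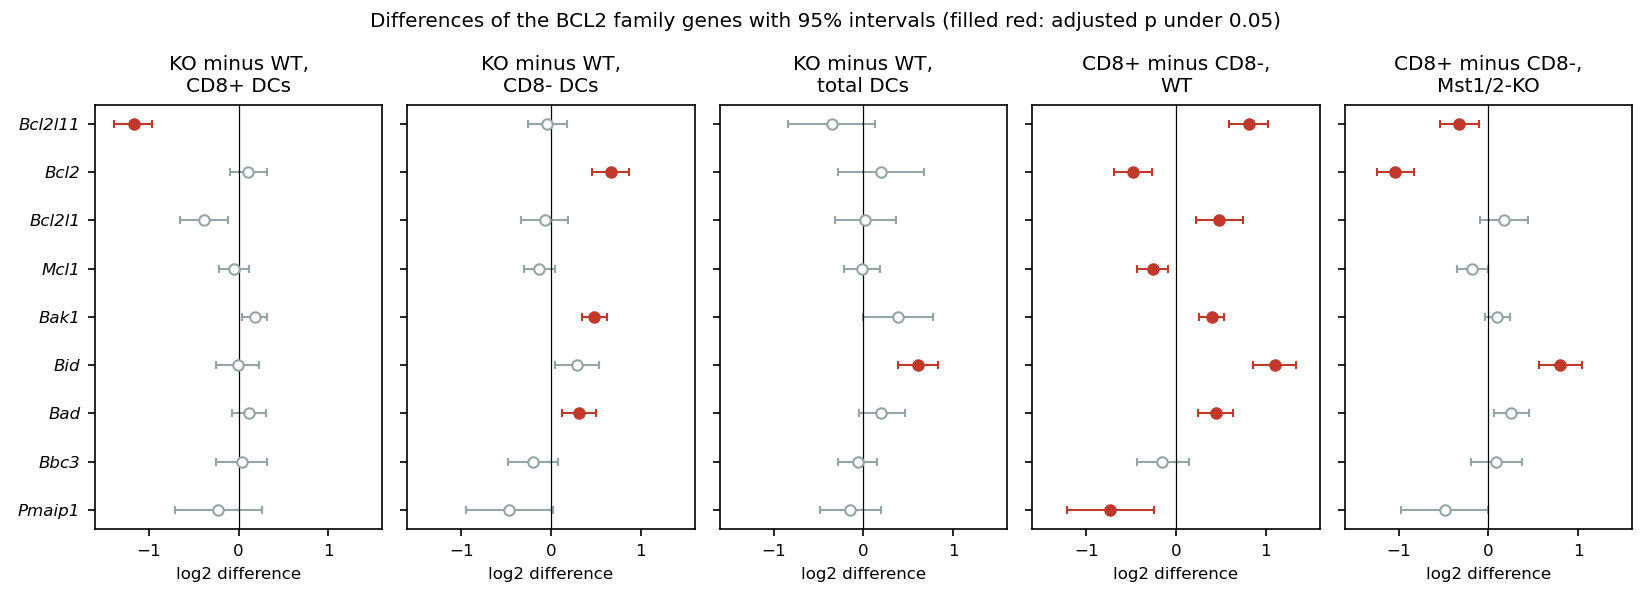
Log2 difference with its 95% interval (horizontal axis) for each of the 9 measured members, in panels for the comparisons of sorted and total DCs, filled points being calls. The Bcl2l11 point lies at -1.17 for Mst1/2-KO against WT in CD8+ DCs and at -0.04 in CD8- DCs, and the Bcl2 point at 0.11 and 0.67.

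The genes whose profile over the 16 sorted arrays lay nearest to that of Bcl2l11 are given as a description. Likeness was the root mean square difference of gene-centred log2 values. Provisional symbols (beginning with Gm and a digit, LOC or n-R, or ending in Rik) were passed over. The 5 nearest of the genes kept were Ccng2 (0.23), Eno2 (0.26), Dtnb (0.27), Dok1 (0.27) and Tnfrsf4 (0.27). The profile of Bcl2l11 itself had a root mean square of 0.45. Ccng2, which encodes cyclin G2, averaged 6.39 ± 0.27 in Mst1/2-KO and 7.21 ± 0.14 in WT CD8+ arrays, and 6.75 ± 0.14 in Mst1/2-KO and 6.82 ± 0.19 in WT CD8- arrays (SD, n = 4 each). Nearest to Bcl2 (0.46) among the genes kept were Lat2 (0.15), Svil (0.15), Cyp51 (0.16), Trappc5 (0.16) and Elmo2 (0.16).

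Of the wider BCL2 family, 12 of 16 listed genes were measured. Of these, 1 fell in Mst1/2-KO CD8+ DCs, where 0.654% of all genes were called lower. This was Bcl2l14, the gene of BCL-G, a BH3-containing relative of less settled function, at 5.55 ± 0.16 in Mst1/2-KO and 6.30 ± 0.19 in WT CD8+ arrays (SD, n = 4 each). The change was -0.75 ± 0.12 (adjusted p = 0.00334), and Bcl2l14 averaged 4.15 ± 0.16 in Mst1/2-KO and 3.80 ± 0.21 in WT CD8- arrays. Its difference of effects between the subsets was -1.11 ± 0.17 (adjusted p = 0.00495), so with Bcl2l11 it was the other gene of the family lists called in that test. Its WT CD8- mean lay under every array median, and whether it stood above background there was not tested, so the size of any difference set against that group is uncertain. In WT DCs Bcl2l14 was 2.50 ± 0.12 higher in the CD8+ subset (adjusted p = 5.57e-11), where Bcl2l2 (0.49 ± 0.10), the gene of the pro-survival protein BCL-W, and Bok (0.40 ± 0.10), an effector relative, were higher too. Those were 3 higher and 0 lower of the 12, near the 21.0% of all genes called in either direction, and the list had a median difference of 0.20 against 0.02 over all genes. In Mst1/2-KO DCs, Bcl2l14 (1.39 ± 0.12), Bcl2a1a (0.45 ± 0.11) and Bcl2l2 (0.29 ± 0.10) were higher in the CD8+ subset. There 19.2% of all genes were called, and 9.93% of all genes were called higher. Bcl2a1a has near-identical copies, so its signal may include theirs. In CD8- DCs 0 of the 12 were called between the genotypes in the limma fit, where 6.68% of all genes were, and 2 passed an unadjusted p under 0.05.

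Of the apoptosome and caspase list, 13 of 15 genes were measured. Birc3, the gene of the inhibitor of apoptosis cIAP2, fell in Mst1/2-KO CD8+ DCs, by 0.48 on the log2 scale (SE 0.09, adjusted p = 0.0113), as 1 of 13. There 0.654% of all genes were called lower. In Mst1/2-KO CD8- DCs 3 of 13 fell and 0 rose, namely Birc2 (cIAP1, -0.65 ± 0.11), Cflar (the caspase-8 blocker c-FLIP, -0.49 ± 0.10) and Birc3 (-0.31 ± 0.09, adjusted p = 0.0494). Over all genes 6.68% were called in that comparison, 2.79% as lower. Xiap, the gene of a further caspase inhibitor and also named after its values were seen, averaged 7.03 ± 0.07 in Mst1/2-KO and 6.88 ± 0.05 in WT CD8- arrays (SD, n = 4 each) and was not called (0.15 ± 0.07, adjusted p = 0.248). The list medians were 0.00 in CD8+ and 0.02 in CD8- DCs, against 0.00 over all genes in both. Between the WT subsets, where 21.0% of all genes were called, 5 were higher and 5 lower in CD8+ DCs, with Casp6 (1.53 ± 0.10), an executioner caspase, among the higher, and Birc2 (-0.76 ± 0.11), Cflar (-0.60 ± 0.10) and Casp8 (-0.58 ± 0.09), the initiator caspase of death receptors, among the lower. The rest of these calls, named after their values were seen, were Cycs (0.55 ± 0.06), the gene of cytochrome c, Casp2 (0.42 ± 0.09), Casp9 (0.33 ± 0.09) and Diablo (0.29 ± 0.07) as higher, and Birc3 (-0.31 ± 0.09) and Xiap (-0.25 ± 0.07) as lower. In the Mst1/2-KO subsets, where 19.2% of all genes were called, 4 were higher and 5 lower, again with Casp6 (1.53 ± 0.10) and Casp8 (-0.77 ± 0.09) at the extremes.

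Of the regulators of family genes and proteins, 10 of 11 were measured. In Mst1/2-KO CD8- DCs, Myb, a transcription factor of blood progenitors known to drive Bcl2, rose by 0.93 ± 0.17 (adjusted p = 0.00237) to 6.38 ± 0.26, against 5.45 ± 0.35 in WT CD8- arrays (SD, n = 4 each). Foxo1, a forkhead factor, rose by 0.39 ± 0.09 (adjusted p = 0.0171), and these were 2 of 10, where 3.90% of all genes were called higher, with a list median of 0.01 against 0.00. In CD8+ DCs 0 of the 10 were called in the limma fit, where 0.888% of all genes were, and 0 passed an unadjusted p under 0.05. The difference of effects of Myb was called, at -1.24 ± 0.24 (adjusted p = 0.0225). The part of Myb and the other regulators in the member results was not tested. Between the WT subsets 3 were higher and 3 lower in CD8+ DCs, where 21.0% of all genes were called. The higher ones included Myb (1.48 ± 0.17) and Dynll2 (1.36 ± 0.11), a dynein light chain that anchors the BH3-only protein BMF, and the lower ones Ddit3 (-0.63 ± 0.20), the stress factor CHOP, and Foxo3 (-0.52 ± 0.13). The remaining 2 calls, Foxo1 (0.46 ± 0.09) and Dynll1 (-0.32 ± 0.09), whose product anchors Bim, are named after their values were seen. In the Mst1/2-KO subsets, where 19.2% of all genes were called, Dynll2 (0.89 ± 0.11) was higher and Foxo3 (-0.47 ± 0.13) lower.

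**Figure D3:**
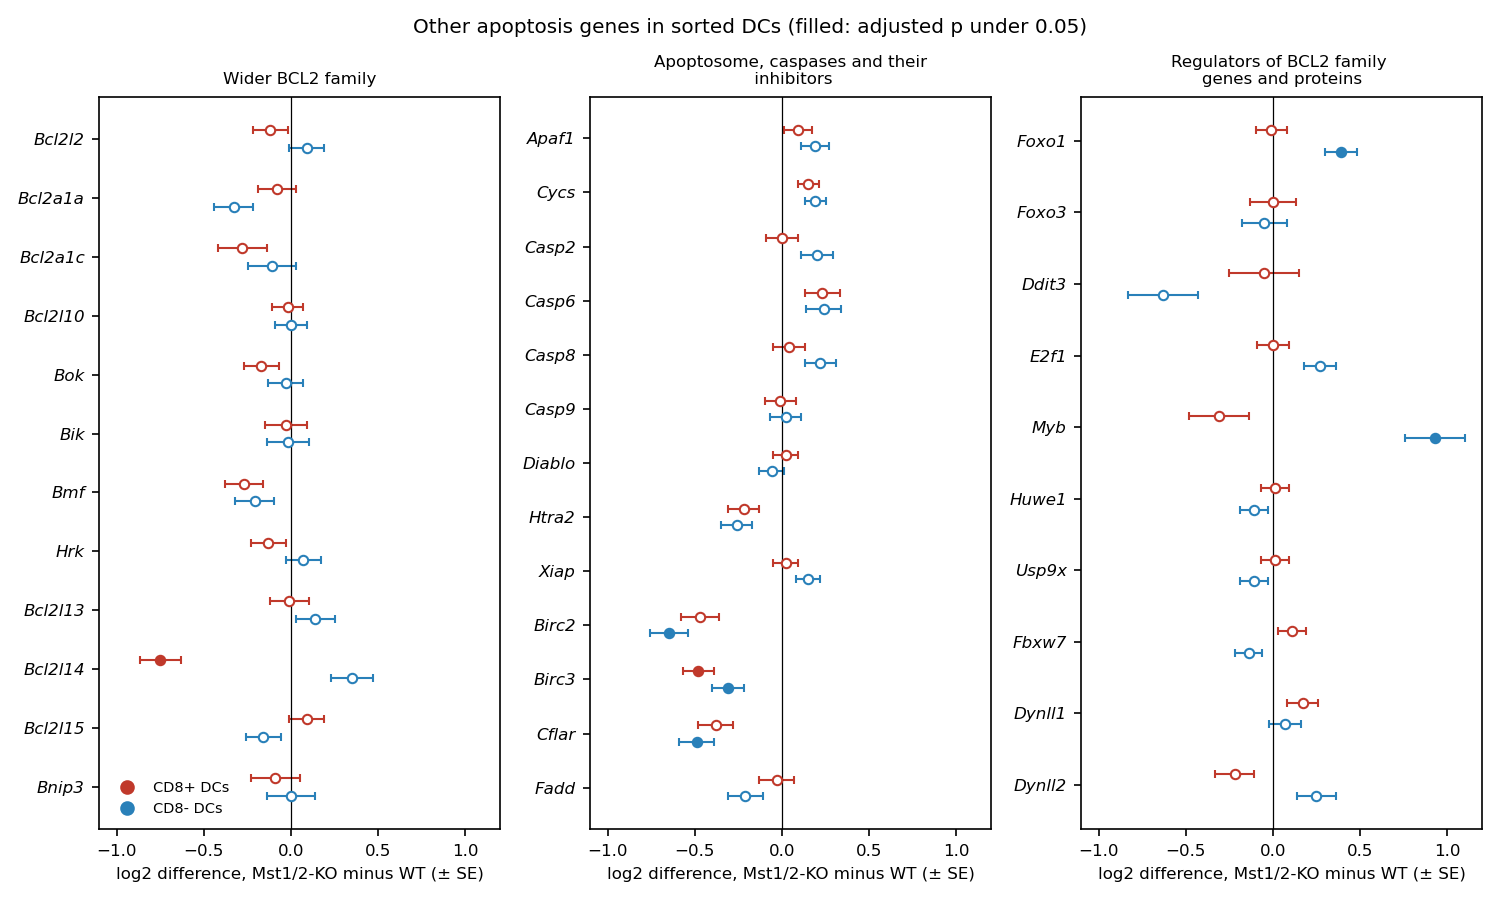
Log2 difference (horizontal axis) of Mst1/2-KO against WT for the measured genes of the wider BCL2 family, the apoptosome and caspase list and the regulators, in CD8+ and CD8- DCs, with SE bars and filled points for calls. Bcl2l14 at -0.75 and Birc3 at -0.48 are the calls in CD8+ DCs, and Birc2, Cflar, Birc3, Myb and Foxo1 are those in CD8- DCs.

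In total DCs, which hold both subsets, Bid was the 1 member of 9 called between Mst1/2-KO and WT, where 0.848% of all genes were called (0.316% as higher). Bid read 5.87, 5.91 and 5.87 in Mst1/2-KO total arrays, against 5.26, 5.45, 5.23 and 5.15 in WT total arrays. The groups did not overlap, and the rise was 0.61 ± 0.10, or 1.53-fold (adjusted p = 0.0238). The Bid call was kept without WT total replicate 2 (adjusted p = 0.0289). It was lost without Mst1/2-KO total replicate 1 (0.11), 2 (0.127) or 3 (0.0716) and without WT total replicate 1 (0.0513), 3 (0.0541) or 4 (0.0655). The CD8+ DC markers averaged 9.51 (9.47 to 9.53) in Mst1/2-KO and 9.16 (8.88 to 9.50) in WT total arrays, and the CD8- DC markers 7.09 (6.71 to 7.41) in Mst1/2-KO and 7.88 (7.64 to 8.08) in WT arrays. Bid was the member with the widest difference between the WT subsets, and the part of subset composition in its rise was not tested. The DC maturation genes averaged 7.49 (7.38 to 7.59) in Mst1/2-KO and 8.54 (8.23 to 8.87) in WT total arrays (2 of 5 called lower, 5 of 5 at an unadjusted p under 0.05). The B cell markers averaged 5.15 (4.90 to 5.32) in Mst1/2-KO and 5.60 (5.49 to 5.88) in WT total arrays (0 of 7 called in the limma fit, 4 at an unadjusted p under 0.05), and the part of these lists was not tested either.

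Bcl2l11 read 6.98, 7.27 and 6.98 in Mst1/2-KO total arrays and 7.32, 7.42, 8.04 and 6.95 in WT total arrays. The WT arrays spanned the whole Mst1/2-KO range, and the difference of -0.35 ± 0.22 was not called (95% interval -0.84 to 0.13, adjusted p = 0.553). Without WT total replicate 3 it was -0.15 (adjusted p = 0.734). Bcl2 read 6.95, 7.15 and 7.11 in Mst1/2-KO total arrays and 7.54, 6.59, 6.75 and 6.62 in WT total arrays, where WT replicate 1 stood above all others (0.20 ± 0.21, adjusted p = 0.775). The Bcl2 difference was 0.42 without that array (adjusted p = 0.124), and 0.10 without WT replicate 2 and 0.11 without WT replicate 4. In T cell markers the WT total arrays ranged from 4.40 to 6.18 and the Mst1/2-KO arrays from 4.71 to 5.27. Bak1 lay at 9.99 to 10.16 in Mst1/2-KO and 9.21 to 9.98 in WT total arrays, and Bad at 6.77 to 6.81 in Mst1/2-KO and 6.30 to 6.72 in WT arrays, both without overlap. Neither was called (0.38 ± 0.17, adjusted p = 0.395 for Bak1, and 0.20 ± 0.12, adjusted p = 0.514 for Bad), and groups without overlap made up 13.8% of all genes. Bcl2l1, Mcl1, Bbc3 and Pmaip1 differed by -0.15 to 0.02. The member median was 0.02, against 0.00 over all genes. Birc2 was the 1 gene called in the 3 wider lists (-0.74 ± 0.09, adjusted p = 0.0086), with 8.29 ± 0.10 in Mst1/2-KO and 9.02 ± 0.05 in WT total arrays (SD, n = 3 and 4).

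**Figure D4:**
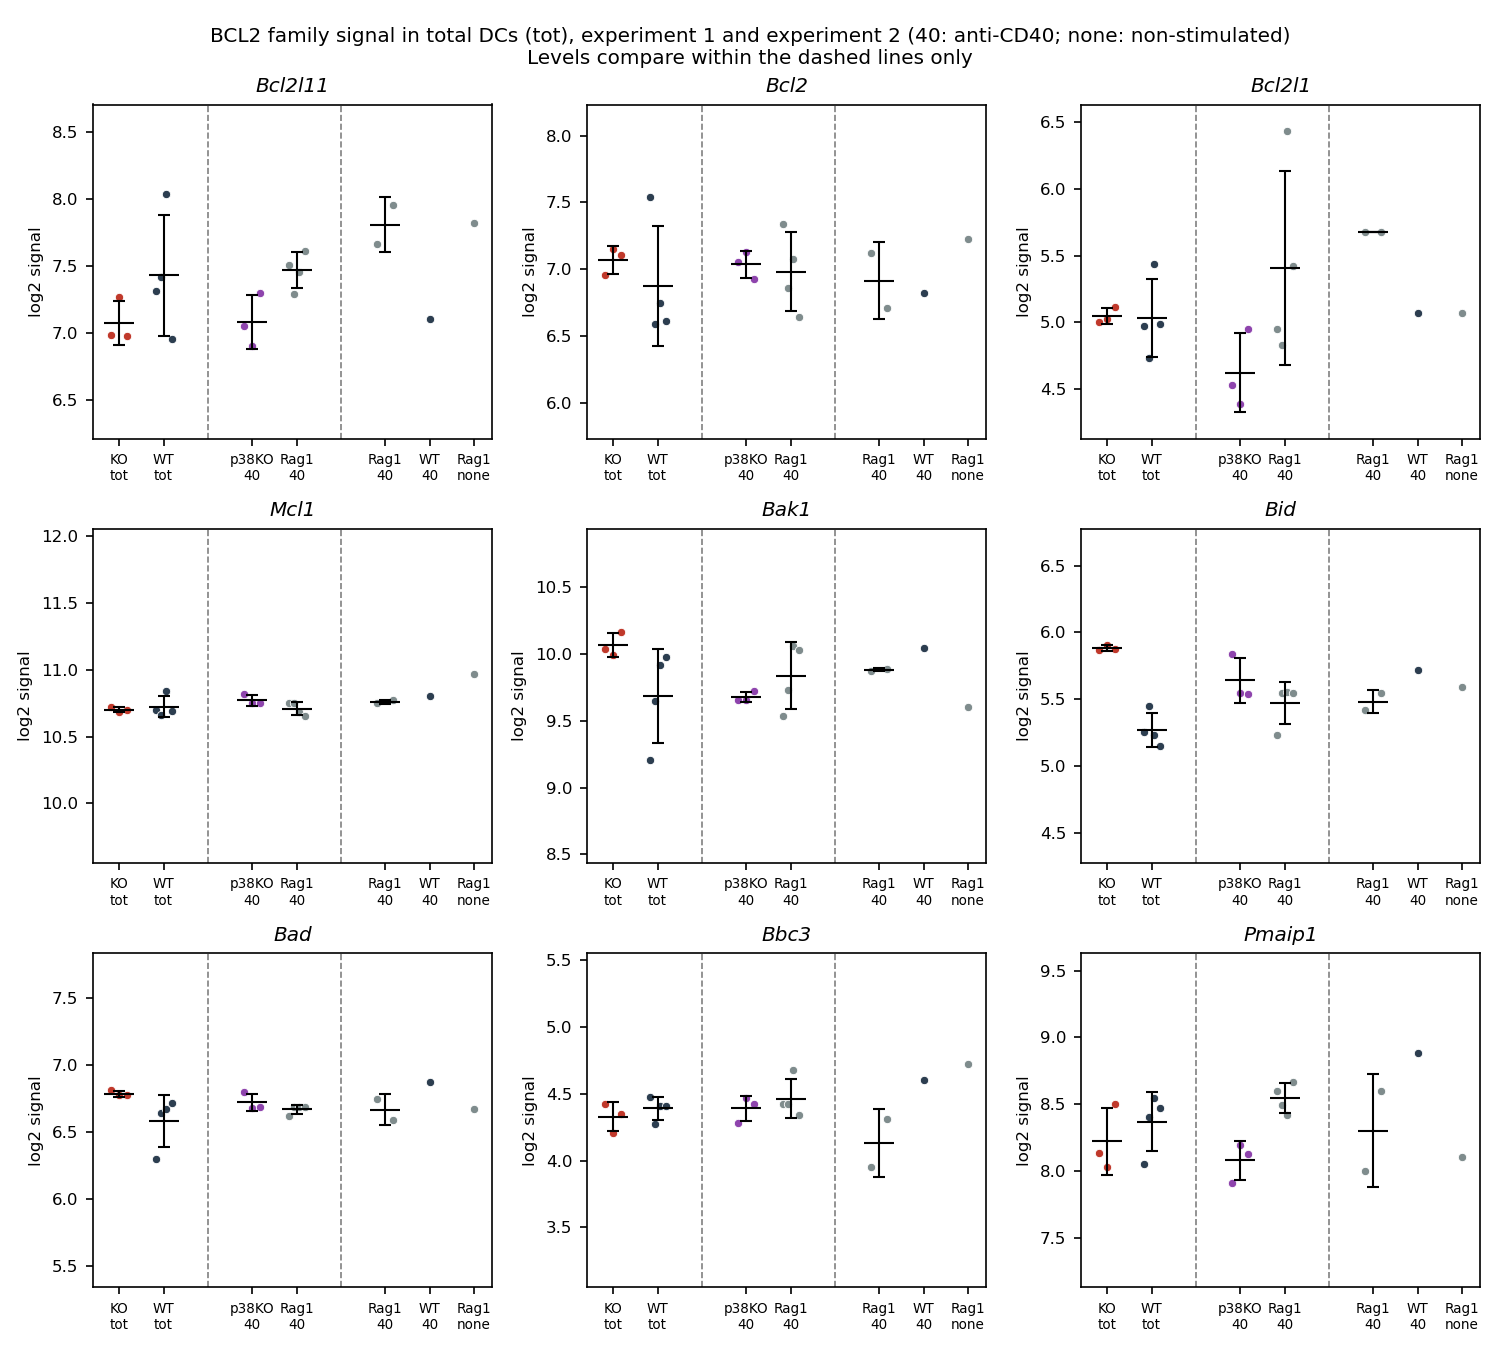
Log2 signal (vertical axis) of the 9 measured members in the total DC arrays, experiment 1 and experiment 2, 1 panel per gene, with points for arrays, a bar for the group mean and dashed lines between experiments, across which levels cannot be compared. Bid in Mst1/2-KO total arrays lies at 5.87 to 5.91, above the 5.15 to 5.45 of WT total arrays.

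Experiment 1 compared anti-CD40-stimulated DCs labelled Rag1-/-/p38-/- with Rag1-/- DCs, p38 being a stress-activated kinase. In the limma fit 0 of the 9 members were called, and 0% of all genes were. At an unadjusted p under 0.05, 2 members and 1866 genes passed, and with trend and robust moderation 0 members were called. The smallest p belonged to Pmaip1, which read 7.91, 8.19 and 8.13 in Rag1-/-/p38-/- arrays and 8.60, 8.49, 8.42 and 8.67 in Rag1-/- arrays. The groups did not overlap, as for 7.48% of all genes, and the difference was -0.47 ± 0.09 (adjusted p = 0.367). Bcl2l11 read 7.05, 6.90 and 7.29 in Rag1-/-/p38-/- arrays and 7.51, 7.29, 7.45 and 7.61 in Rag1-/- arrays, which met at 7.29 (-0.39 ± 0.11, adjusted p = 0.507). Bcl2l1 differed by -0.78 ± 0.39 (adjusted p = 0.605), and Rag1-/- replicate 3 stood at 6.43, above the 4.39 to 5.42 of the other 6 arrays. Without that array the Bcl2l1 difference was -0.44 (adjusted p = 0.685).

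Many experiment 1 values were identical between arrays. For 59.1% of genes, 2 or more of the 7 arrays equalled the median over that experiment, against 0.401% to 0.87% in the sorted and total DCs. The members concerned were Bcl2l1, Mcl1, Bid, Bad and Bbc3. Bid, for example, read 5.83, 5.55 and 5.54 in Rag1-/-/p38-/- arrays and 5.23, 5.55, 5.55 and 5.55 in Rag1-/- arrays. The effect of these ties on the spread and the p-values was not tested. Neutrophil markers averaged 5.06 (3.99 to 5.76) in Rag1-/-/p38-/- and 6.58 (6.24 to 7.23) in Rag1-/- arrays, and 0 of 6 were called. DC maturation genes averaged 7.29 (7.07 to 7.66) in Rag1-/-/p38-/- and 8.49 (7.93 to 9.16) in Rag1-/- arrays, and 0 of 5 were called. In the limma fit 5 genes of each list passed an unadjusted p under 0.05. Their part in the member values was not tested.

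Experiment 2 set anti-CD40-stimulated Rag1-/- DCs against 1 WT array and against 1 non-stimulated Rag1-/- array, each of which is assumed to vary like the other arrays of experiments 1 and 2. That spread came largely from experiment 1, with its tied values and its Bcl2l1 reading of 6.43 in Rag1-/- replicate 3. In experiment 2 such ties were found for 0.0406% of genes. Their effect on the SEs and p-values below was not tested. Against WT, 0 of the 9 members were called in the limma fit (3 at an unadjusted p under 0.05), where 0.365% of all genes were. Bcl2l11 read 7.66 and 7.95 in anti-CD40 Rag1-/- arrays, against 7.10 in the WT array (0.71 ± 0.19, adjusted p = 0.159). Bbc3 read 3.95 and 4.31 in Rag1-/- arrays and 4.60 in the WT array (-0.47 ± 0.18, adjusted p = 0.282), and Pmaip1 read 8.0 and 8.60 in Rag1-/- arrays and 8.88 in the WT array (-0.58 ± 0.23, adjusted p = 0.296). Neutrophil markers averaged 7.39 (7.31 to 7.48) in Rag1-/- arrays and 5.47 in the WT array. NK cell markers averaged 5.34 (5.24 to 5.44) in Rag1-/- arrays and 4.17 in the WT array. B cell markers averaged 4.87 (4.84 to 4.90) in Rag1-/- arrays and 5.59 in the WT array. The part of these 3 lists was not tested. Against the non-stimulated array, 0 of the 9 were called (2 at an unadjusted p under 0.05), where 0.0361% of all genes were. There Bbc3 read 3.95 and 4.31 with anti-CD40, against 4.73 without (-0.59 ± 0.18, adjusted p = 0.223), and Mcl1 read 10.75 and 10.77, against 10.96 (-0.20 ± 0.08, adjusted p = 0.359). Bcl2l11 read 7.66 and 7.95 with anti-CD40 and 7.82 without. Bcl2l1, a gene that CD40 signalling is known to raise, read 5.68 and 5.68 with anti-CD40 and 5.07 without (0.60 ± 0.56, adjusted p = 0.715). Both comparisons use the same anti-CD40 Rag1-/- arrays. The Bbc3 signals in experiment 2 lay near the array medians of 4.11 to 4.20, and the 3.95 lay under every one of them. Whether Bbc3 stood above background was not tested, so the size of its differences is uncertain.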

How the data were processed

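DCs were sorted from mouse spleen, and amplified RNA was hybridised to arrays, per the labels' protocols. The deposited log2 values (0.57 to 13.19) of 41155 probe sets on 34 arrays were normalised by the authors, and the submitters' processing notes name RMA and Partek 6.6. Beyond decimal 5, 98.4% to 99.3% of probe sets share digits within an experiment label and 0.01% across labels, so levels were compared within a label only. Of the probe sets, 23521 had 1 symbol, 1814 several and 15820 none, and the first gave 22180 genes (1082 with several probe sets, the highest mean being kept). Group-means models were fitted in limma 3.58.1 (R 4.3.3), 1 for the 16 sorted arrays, and calls needed a Benjamini-Hochberg adjusted p under 0.05 over all genes. The model was tested on simulated data.

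The members and lists were chosen with earlier results of these data known. The named genes are all members, the targeted genes that were measured, and the called genes of each list (at most 4, by size of change). The 5 nearest profiles of Bcl2l11 and Bcl2, with provisional symbols passed over, were added. Arrays of 1 replicate number correlated in their deviations from group means at 0.13 to 0.34 between the WT subsets. Between the Mst1/2-KO subsets they correlated at 0.09 to 0.21. In both, and in experiment 1, every array correlated best with its own number, so the numbers may pair these arrays. Alternatives were quantile and cyclic loess normalisation, genes above the median signal, the mean of probe sets, trend and robust moderation, the replicate block, smaller array sets or array weights, and leaving out each array. Promoters are from RefSeq (GRCm38.p6). Over the sorted groups, the lists Pan-DC, NK cell, and macrophage and monocyte gave group means of 10.01 to 10.04, 4.41 to 5.20 and 6.96 to 8.51.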

Additional observations from a re-analysis of the deposited data

Results flagged for a closer look

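Outlying arrays were sought in 54 pairs of a member and a group of 4 arrays, with Dixon's criterion, which flags about 1 in 20 groups by chance, and 4 were found. Bcl2l11 in WT CD8+ replicate 1 stood at 7.76, below the 8.07 of the nearest array, and still above every Mst1/2-KO CD8+ array. Bcl2 in WT total replicate 1 stood at 7.54, the next array being at 6.75. Bid at 5.23 and Bad at 6.62, both in Rag1-/- anti-CD40 replicate 1 of experiment 1, stood apart from 3 arrays that shared 1 value each (5.55 and 6.68). The genotype effect on Bcl2l11 differed between the subsets by a direct test, at -1.13 ± 0.15 (CD8+ minus CD8- DCs, adjusted p = 0.0011).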

How the results depend on the processing

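The fall of Bcl2l11 in Mst1/2-KO CD8+ DCs, its difference of effects, and the rises of Bcl2 and Bak1 in Mst1/2-KO CD8- DCs were called in each of the settings run. The number of members called differed by over 1.5 times from the reported one in 2 comparisons. It was 1 to 2 for the difference of effects over the fits without 1 array (2 without WT CD8- replicate 1), and in total DCs it was 0 with the replicate block and 0 to 1 without 1 array. With the block, Bid in total DCs was at 0.57 (adjusted p = 0.0978), Bcl2l11 between the Mst1/2-KO subsets had an adjusted p of 0.0659, and Pmaip1 there was called (0.026). Bad between the Mst1/2-KO subsets was called with genes above the median signal alone (0.0382) and with the 8 Mst1/2-KO arrays alone (0.0382). The replicate numbers may pair the arrays between the WT subsets and between the Mst1/2-KO subsets. The block changed no member's call between the WT subsets, and changed those of Bcl2l11 and Pmaip1 between the Mst1/2-KO subsets. The other correlations of same-numbered arrays were 0.09 to 0.21 (Mst1/2-KO subsets), -0.07 to 0.09 (CD8+), 0.01 to 0.09 (CD8-), 0.05 to 0.13 (total) and 0.09 to 0.16 (experiment 1), and in the Mst1/2-KO subsets and experiment 1 every array correlated best with its own number.

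Signs changed in 26 cases, all of uncalled differences of at most 0.23, with adjusted p of at least 0.759. In total DCs Bcl2l1 was at -0.01 with cyclic loess and Mcl1 at 0.01 with the mean of probe sets. In experiment 1 Bcl2 was at -0.02 with the mean of probe sets and -0.05 with the block, and for Rag1-/- against WT Mcl1 was at 0.02 after quantile normalisation and 0.00 with the mean of probe sets. Without 1 array, in Mst1/2-KO against WT CD8+ DCs, Bid ranged from -0.12 to 0.06, Bbc3 from -0.07 to 0.09, Mcl1 from -0.09 to 0.01 and Pmaip1 from -0.36 to 0.04. In CD8- DCs Bcl2l11 ranged from -0.10 to 0.04 and Bcl2l1 from -0.14 to 0.01, between the Mst1/2-KO subsets Bbc3 from -0.01 to 0.18, and in total DCs Bcl2l1 from -0.08 to 0.15 and Mcl1 from -0.04 to 0.02. Bcl2 ranged from -0.05 to 0.18 in experiment 1 and from -0.11 to 0.30 for Rag1-/- against WT, and for anti-CD40 against non-stimulated DCs Bcl2l11 from -0.16 to 0.13, Bad from -0.09 to 0.08 and Pmaip1 from -0.10 to 0.50. The cause of these changes was not tested.

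Counts over all genes moved too. Without 1 array they were 114 to 209 (reported 197) in CD8+ DCs, 918 to 1533 (1482) in CD8- DCs, 79 to 259 (124) for the difference, 39 to 169 (188) in total DCs, 195 to 234 (81) for Rag1-/- against WT and 39 to 136 (8) for anti-CD40. In the other settings they were 123 to 273, 1192 to 1725, 139 to 222, 108 to 340, 4 to 82 and 0 to 17 in that order. The share of calls that were higher was 26.4% in CD8+ DCs, 15.9% to 38.3% without 1 array and 16.3% (their 8 arrays alone) to 35.5% (the block, and genes above the median signal) in the other settings. In total DCs it was 37.2%, 15.4% to 39.6% without 1 array and 25.3% (cyclic loess) to 43.9% (genes above the median signal) in the others. The number of arrays limits what could be called, and for the lone arrays of experiment 2 the spread is borrowed.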
